A study of Mus musculus with 13 samples.

Results

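The effect of an earlier LPS injection on open chromatin was measured in mouse microglia that were challenged with LPS again, pooled over animals that kept their original microglia and animals whose microglia had been replaced. It was taken from 9 of the 13 ATAC-seq libraries of the study. The 4 primed libraries (LL and LBL) were set against the 5 first-challenged libraries (PL and PBL), with treatment by BLZ945 or vehicle as a block. ATAC-seq marks open chromatin by the cuts of a transposase, and each value counts those cuts in a stretch called a peak.

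All mice were male C57BL/6J, injected intraperitoneally at the age of 10 weeks and again 5 weeks later, and microglia were sorted 3 hours after the last injection. LL mice (2 libraries) received LPS at 1 mg/kg, then vehicle by gavage for 5 days from 1 week after that injection, then LPS at 1 mg/kg. LBL mice (2 libraries) received the same injections with BLZ945 at 169 mg/kg per day in place of vehicle. PL mice (2 libraries) and PBL mice (3 libraries) received PBS first and LPS at the end, with vehicle in PL and BLZ945 in PBL. PP and PBP mice (2 libraries each) received PBS both times, with vehicle in PP and BLZ945 in PBP, and served here as resting levels. BLZ945 blocks CSF1R, the receptor microglia need to survive, so that microglia are lost during dosing and new ones grow back afterwards. Cells of 2 animals, 40000 per animal, were combined in every library and had been sorted as CD11b-high, CD45-intermediate and Ly6c-negative. A replicate is therefore a pool.

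LPS is a bacterial cell wall component sensed by TLR4, which activates NF-kB, MAP kinases and interferon regulatory factors. Macrophages also switch on inhibitors of these pathways, such as A20 and the MAP kinase phosphatases, which end the response. A macrophage that has met LPS can answer a repeat more weakly, called tolerance, or more strongly, called priming or training. Both states have been linked to marks left on chromatin. Here primed only names the libraries with an earlier LPS injection, whatever the direction of a difference. Microglia hold open a set of identity regions, bound by factors such as PU.1 and SALL1, that are commonly reduced during inflammation.

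Promoter peaks were present at the microglia markers P2ry12, Tmem119, Sall1, Cx3cr1 and Csf1r. Markers of other cells were in part open. Mbp and Mog, of oligodendrocytes, had promoter peaks, with locus sums of 207 to 243 and 56.7 to 66.3 CPM in primed libraries, against 203 to 251 and 43.0 to 59.6 CPM in first-challenged libraries. Peaks also lay within 50 kb of Mrc1, Cd163 and F13a1 (border macrophages), Ccr2 (monocytes), S100a9 (neutrophils), Rbfox3 and Snap25 (neurons), and Cldn5, Pecam1 and Pdgfrb (endothelial and mural cells). None lay within 50 kb of Ly6c2, Lyve1, Pf4, S100a8, Ly6g, Cd3e, Cd79a, Gfap, Aqp4 or Slc17a7. Depth was 1547545 to 2494980 rounded counts in peaks in primed libraries and 1444372 to 2772688 in first-challenged libraries. Resting libraries had 927840 and 990266 in PP, the lowest of all, and 1653191 and 1316675 in PBP. One library stood apart: PL 3_4 differed from PL 1_2 with a chi-square per degree of freedom of 1.84, against 0.978 to 1.15 in the other pairs of LPS libraries. The LBL pair had the lowest of these values (0.978) and could not be told from counting noise (chi-square test over peaks), but counts in steps of 0.5 leave that noise uncertain, so it was kept as 2 libraries and results with the pair averaged are given beside the counts. LL, LBL and PBL were sorted on the XDP sorter and PL, PP and PBP on the Astrios. LL, LBL and PBL were each isolated on a day of their own, so that day and group cannot be told apart, and in the vehicle arm sorter and group cannot be told apart either. PL 1_2 was isolated on the day of PBP and PL 3_4 on that of PP, so within PL day and library cannot be told apart.

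Of 37546 peaks tested, 804 (2.14%) differed between primed and first-challenged microglia at an adjusted p under 0.05 in edgeR's quasi-likelihood test. In primed libraries 437 peaks (1.16%) were lower and 367 (0.977%) were higher. The lower peaks had a median log2 difference of -0.80, and 125 of them differed more than 2-fold. Those called higher had a median of 0.69, with 30 beyond 2-fold. At an unadjusted p under 0.05 there were 5097 peaks. The count was 1275 without PL 3_4, with 722 higher and 553 lower, so the balance between directions rested in part on that library. It was 254 without LBL 1_2, 258 without LBL 3_4 and 243 with the LBL pair averaged to 1 library, with 67 higher and 176 lower. Without PBL 3_4 it was 472 and without PBL 4_5 it was 409. Labels give these libraries a shared animal number, so they may not be independent.

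The called peaks had medians of the same sign in both arms, while most calls within an arm came from the BLZ945 arm. In the fit of 4 group means, LL against PL of the vehicle arm gave 14 calls (0.0373%), of which 12 were lower and 2 higher. Leaving out LL 1_2 gave 3 calls, LL 3_4 gave 4, PL 1_2 gave 284 and PL 3_4 gave 1, each leaving a lone library assumed to vary like the other groups. In the same fit, LBL against PBL gave 588 calls (1.57%), with 296 lower and 292 higher. It was 54 without LBL 1_2, 37 without LBL 3_4, 281 without PBL 3_4 and 254 without PBL 4_5. No peak was called for a difference between the arms, 0 of 37546 (0.0%) in edgeR, with 2465 at an unadjusted p under 0.05. Calls for the arm difference numbered 60 without PL 1_2 and 1 without PL 3_4. Among the 437 peaks called lower, the median was -0.66 in LL against PL and -0.88 in LBL against PBL. For the 367 called higher it was 0.52 in LL against PL and 0.79 in LBL against PBL. Since the pooled test chose these peaks, their shared sign is a description.

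**Figure D1:**
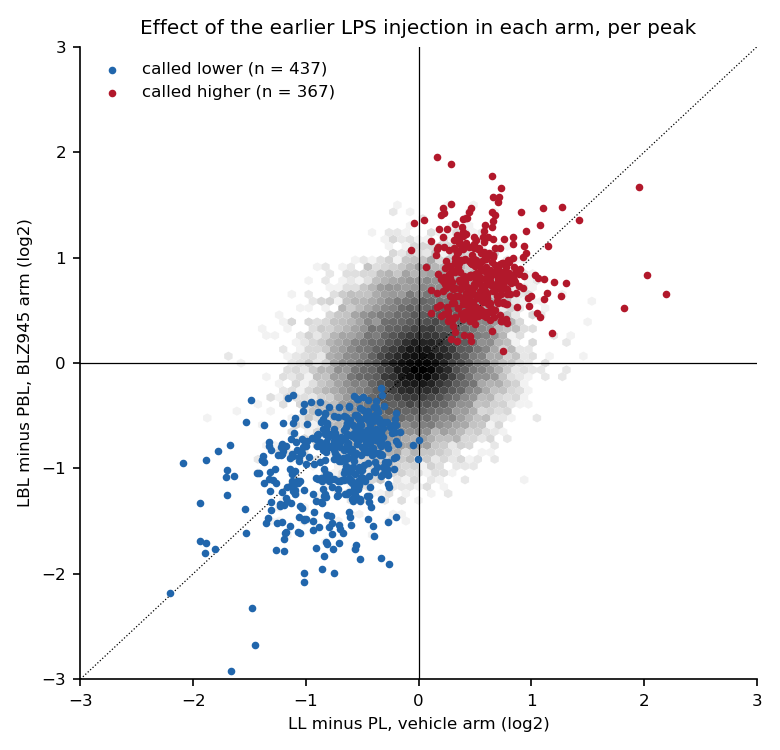
Log2 difference of each peak in the vehicle arm (LL minus PL, x axis) and in the BLZ945 arm (LBL minus PBL, y axis), with all 37546 tested peaks as grey density, the 437 called lower in blue and the 367 called higher in red. Called peaks lie mainly in the lower left and upper right, more of them farther from 0 in the BLZ945 arm.

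The arms share no library, so peaks chosen in one can be read in the other. Of the 296 peaks called lower in LBL against PBL, 262 were also below 0 in LL against PL (88.5%, exact 95% interval 84.3% to 91.9%), with a median of -0.46. Over all peaks 49.5% were below 0, with a median of 0.00. Of the 292 called higher in LBL against PBL, 234 were above 0 in LL against PL, with a median of 0.22. Most peaks of both sets chosen in the BLZ945 arm thus lay on the same side of 0 in the vehicle arm. Without PL 3_4 the medians were -0.33 and 0.31.

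At the 296 peaks called lower in LBL against PBL, the vehicle arm also showed where the resting level lay. Their median level was 15.0 and 15.5 CPM in the LL libraries, 19.0 and 22.6 CPM in the PL libraries, and 15.2 and 15.97 CPM in the PP libraries. LL and PP thus lay close together, with both PL libraries above them. Read in PL against PP, 225 of the 296 were above 0, with a median of 0.41, against a median of 0.01 over all peaks. At the 292 peaks called higher, medians were 17.97 and 18.3 CPM in LL, 14.5 and 15.98 CPM in PL, and 14.7 and 13.97 CPM in PP. Here LL stood above both other groups. Their median in PL against PP was 0.02. LL against PL and PL against PP share the PL libraries, so a deviation of PL would move both.

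**Figure D2:**
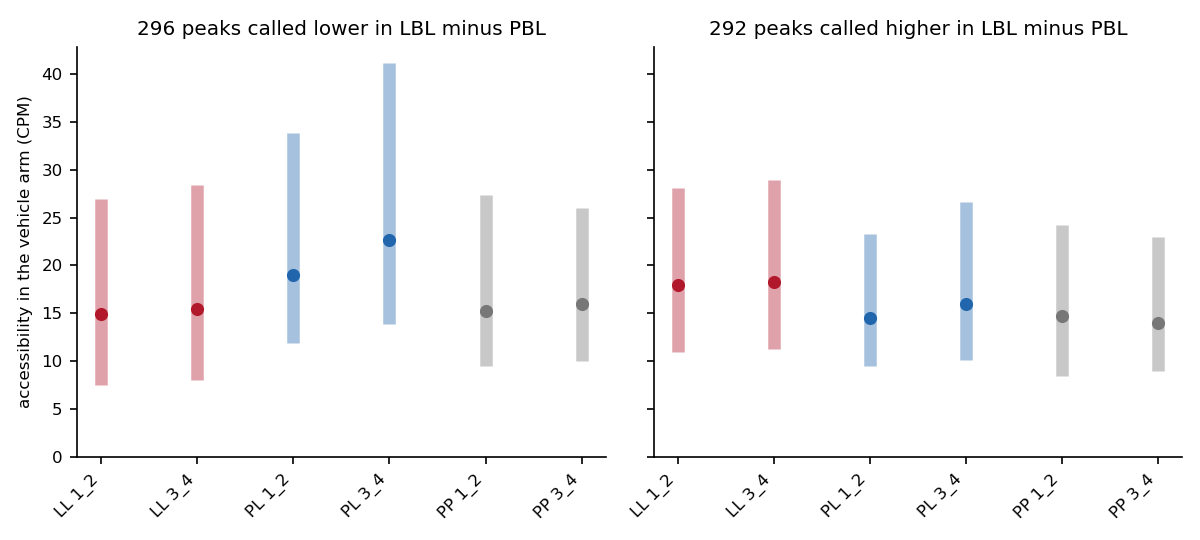
Accessibility (CPM) in each vehicle-arm library at the 296 peaks called lower (left) and the 292 called higher (right) in LBL minus PBL, libraries of the other arm. Dots are medians over peaks and bars the middle 50% of peaks, with LL in red, PL in blue and PP in grey; on the left the LL and PP dots lie below both PL dots, and on the right the LL dots lie above the rest.

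The reverse reading began from the response to a first LPS injection. PL against PP called 1791 peaks higher (4.77%) and 1008 lower (2.69%) of 37516. PBL against PBP called 2527 higher (6.74%) and 1210 lower (3.23%). PBL and PBP also differ in sorter and isolation day, which cannot be told apart from that response. Of the 2527 that rose in PBL against PBP, 1657 were below 0 in LL against PL (65.6%), with a median of -0.11. Of the 1210 that fell there, 1184 were tested in LL against PL, and 811 of those were above 0, with a median of 0.15. From the other side the shift was smaller: of the 1791 peaks that rose in PL against PP, 57.5% were below 0 in LBL against PBL (median -0.05), against 51.1% of all peaks. The 1008 that fell in PL against PP did not show the opposite tendency, with 60.3% of the 991 tested below 0 in LBL against PBL (median -0.06).

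Called peaks lay away from promoters more often than the tested peaks did. Promoter peaks, within 1 kb of an annotated start site, made up 21.3% of the peaks called lower (exact 95% interval 17.5% to 25.4%) and 11.4% of those called higher (8.37% to 15.2%), against 36.8% of all tested peaks. Introns held 33.2% of the lower and 44.4% of the higher peaks, against 31.3% of all. Peaks more than 50 kb from any start site were 11.7% of the lower and 27.5% of the higher, against 10.2% of all. The share of a library's counts that fell in promoter peaks was 56.1% and 55.5% in LL, 56.1% and 56.4% in LBL, 58.0% and 53.2% in PL, and 59.2%, 56.9% and 58.3% in PBL. The difference between primed and first-challenged libraries was -0.844 percentage points (two-sided exact permutation test within arms, p = 0.567, smallest possible p 0.0167). The low value of PL 3_4 (53.2%) was outside the range of all other LPS libraries. Without PL 3_4 the difference was -2.05 points (p = 0.0333 by the same permutation test, the smallest p it can give with a lone PL library), and without PL 1_2 it was 0.361 points.

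**Figure D3:**
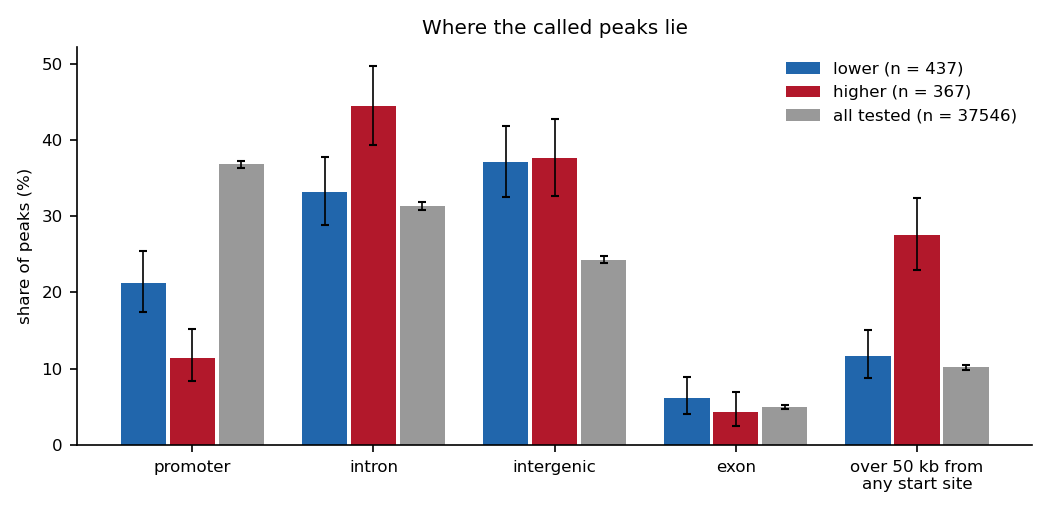
Share of peaks (%, y axis) by deposited annotation class among the peaks called lower (blue), called higher (red) and all tested (grey), with exact 95% binomial intervals as error bars. Peaks beyond 50 kb also count in the intron, intergenic or exon class they lie in; promoters held 21.3%, 11.4% and 36.8% of the 3 sets.

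The peak with the smallest p was a distal one, at chr11:80043416-80043911 and 13988 bp from the start of Crlf3, a cytokine receptor-like factor. It had 2.50 and 3.62 CPM in LL and 2.60 and 6.09 CPM in LBL, against 14.2 and 14.9 CPM in PL and 15.5, 25.9 and 19.8 CPM in PBL. Every primed library was below every first-challenged one. The log2 difference was -2.19 ± 0.26 (SE, edgeR adjusted p = 9.285e-10), with -2.21 in the vehicle arm and -2.18 in the BLZ945 arm. Resting levels were 6.31 and 13.0 CPM in PP and 4.88 and 6.03 CPM in PBP, so the primed LL libraries were below both PP libraries.

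The lower peaks with the smallest p included those of Tnfaip3 and Dusp2, both listed here as feedback inhibitors of LPS signalling. Tnfaip3 encodes A20, a ubiquitin-editing enzyme that restrains NF-kB. Its peak at chr10:19009170-19009739, in the promoter class of the deposited annotation, had 19.5 and 19.3 CPM in LL and 14.3 and 21.3 CPM in LBL, against 24.9 and 44.7 CPM in PL and 32.3, 48.1 and 51.3 CPM in PBL. The groups did not overlap, and the primed values were close to the resting ones of 16.8 and 13.97 CPM in PP and 14.7 and 16.6 CPM in PBP. The log2 difference was -1.10 ± 0.16 (adjusted p = 1.444e-06). A distal Tnfaip3 peak at chr10:18964750-18965213 also fell, by 1.17 on the log2 scale (adjusted p = 0.001078).

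Dusp2, a phosphatase that switches off MAP kinases, lost accessibility at a distal peak (chr2:127322612-127323367, 12792 bp upstream). That peak had 8.98 and 6.44 CPM in LL and 3.90 and 8.63 CPM in LBL, against 15.4 and 19.2 CPM in PL and 14.1, 24.98 and 25.7 CPM in PBL. This was a log2 difference of -1.49 ± 0.22 (adjusted p = 2.092e-06). Its promoter peak was lower too, by a log2 difference of -0.83 (adjusted p = 0.0002851). Zc3h12a, which encodes the RNA-cutting enzyme regnase-1, had 2 intronic peaks called lower, with log2 differences of -1.04 and -0.87.

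At chr1:74381455-74382023 in Slc11a1, a metal transporter of the phagosome membrane, levels were 11.0 and 10.9 CPM in LL and 11.7 and 11.7 CPM in LBL, against 23.7 and 26.6 CPM in PL and 26.7, 36.1 and 35.2 CPM in PBL. Primed libraries hardly varied and lay at or below the resting 12.6 and 15.97 CPM in PP and 12.8 and 12.1 CPM in PBP. Primed over first-challenged, this gave -1.37 ± 0.18 on the log2 scale (adjusted p = 3.1e-08). The nearby Tmbim1, a member of the BAX inhibitor motif family, had a peak at chr1:74295160-74296099 with 17.97 and 16.9 CPM in LL and 23.4 and 26.4 CPM in LBL, against 39.7 and 45.3 CPM in PL and 49.9, 49.0 and 60.9 CPM in PBL. Its log2 difference was -1.19 ± 0.14 (adjusted p = 1.107e-09), as large in the vehicle arm (-1.29) as in the BLZ945 arm (-1.11). The deposited annotation placed these Slc11a1, Tmbim1 and Tnfaip3 peaks at start sites, whereas no RefSeq start window used here for the 3 genes overlapped them.

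The other lower peaks named by rank lay near 3425401B19Rik (log2 difference -1.17), Abhd16b (-1.58), Rab11fip4os1 (-1.91) and Tmsb10 (-1.40), which encodes an actin monomer-binding protein. Another 3 lay over 50 kb from a start site, at chr12:25213693-25214591 (-0.88), chr12:86819090-86819595 (-1.34) and chr8:9008081-9008843 (-1.28). The 24 peaks ranked by this rule were chosen for primed libraries that lay beyond the first-challenged ones in both arms. Of the 437 peaks called lower, 354 had this separation, and of all tested peaks 3.84% did. Among those called higher 295 of 367 had it, and 4.33% of all tested peaks did. The test favours such peaks, so these counts describe the calls.

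**Figure D4:**
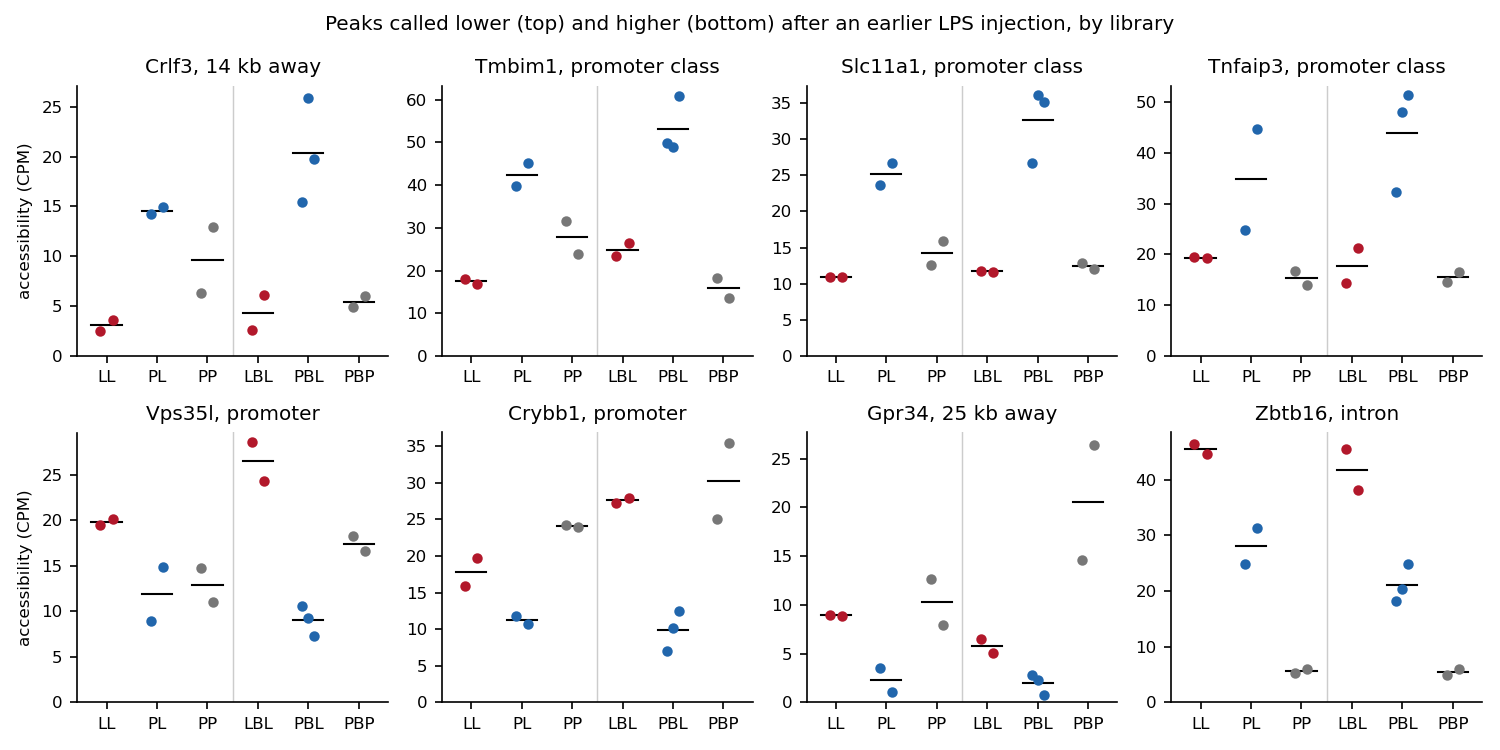
Accessibility (CPM, y axis from 0) of 8 called peaks in every library, by group (x axis), as dots with the group mean as a black bar; LL and LBL in red, PL and PBL in blue, PP and PBP in grey. In the top row the primed dots lie below the first-challenged ones; in the bottom row they lie above, and within that row only Zbtb16 has resting means below both other groups in each arm.

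Lower peaks lay near the genes of miR-155 and miR-146a, singled out after their values were seen, while Mir21c and Mir378d each had 2 higher peaks nearby. A distal peak nearest to Mir155hg, the host gene of miR-155, lay 81444 bp upstream at chr16:84621258-84621723. It had 14.5 and 16.1 CPM in LL and 13.7 and 16.3 CPM in LBL, against 24.9 and 42.1 CPM in PL and 22.5, 36.1 and 24.9 CPM in PBL. The groups did not overlap, with a log2 difference of -1.02 ± 0.17 (adjusted p = 4.446e-05). A peak 10561 bp from the miR-146a gene (chr11:43385022-43385664) had 30.0 and 32.2 CPM in LL and 35.1 and 44.7 CPM in LBL, against 49.8 and 59.7 CPM in PL and 54.1, 60.1 and 68.9 CPM in PBL. Primed libraries were lower by a log2 difference of -0.71 ± 0.12 (adjusted p = 5.082e-05). Resting levels at the miR-146a peak were higher still, 54.7 and 65.9 CPM in PP and 87.9 and 87.5 CPM in PBP, unlike at the Mir155hg peak (10.5 and 17.96 CPM in PP, 15.9 and 14.3 CPM in PBP). In general miR-155 promotes inflammatory signalling and miR-146a restrains it. Their mature forms from RefSeq (GRCm38.p6) are shown to identify both products, with the seed (bases 2 to 8) in capitals. The seeds differ.
mmu-miR-155-5p: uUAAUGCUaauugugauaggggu
mmu-miR-146a-5p: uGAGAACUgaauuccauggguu

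Promoters of NF-kB pathway genes were lower at several start sites. The Birc3 promoter peak (chr9:7872607-7873336), at the gene of a ubiquitin ligase of TNF receptor signalling, had 71.4 and 65.6 CPM in LL and 58.5 and 54.8 CPM in LBL, against 79.4 and 109.7 CPM in PL and 66.7, 98.1 and 106.0 CPM in PBL. Its log2 difference was -0.60 ± 0.10 (adjusted p = 4.723e-05). Resting levels there were 33.7 and 47.9 CPM in PP and 53.1 and 37.7 CPM in PBP, and every primed library lay above the resting libraries of its arm. Called promoter peaks also included Nfkb1 (-0.63) and Nfkb2 (-0.35), which encode NF-kB subunits, Nfkbiz (-0.47), which encodes an IkB family protein, and Ikbke (-0.98), a kinase of the interferon branch. At the start of Tlr2, a receptor for bacterial lipoproteins, the promoter peak had 21.96 and 26.6 CPM in LL and 26.6 and 31.0 CPM in LBL, against 27.3 and 41.5 CPM in PL and 46.4, 42.6 and 42.5 CPM in PBL (log2 difference -0.55, adjusted p = 0.01578). The Tnf promoter peak had 22.96 and 26.6 CPM in LL and 20.8 and 17.3 CPM in LBL, against 33.2 and 30.9 CPM in PL and 42.1, 38.9 and 24.9 CPM in PBL (log2 difference -0.61, adjusted p = 0.01726). At both promoters each primed library was below every first-challenged library of its arm. At Cxcl2, a neutrophil-attracting chemokine, the log2 difference was -0.81 (adjusted p = 0.03018).

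RefSeq start windows (250 bases before to 50 after a start, GRCm38.p6) of the nearest gene were sought at promoter peaks. Peaks of 1 chromosome were left out of this reading. A window shared by several peaks with the same call was counted once. This gave 30 windows for the 91 promoter peaks called lower, 10 for the 42 called higher and 7955 for all 13449 tested. Called promoter peaks thus had fewer windows per peak than all did. The shares below describe these windows only, those of all refer to the 7955, and the sets may not be alike. A match to the NF-kB consensus on either strand was present in 11 of the 30 (36.7%, exact 95% interval 19.9% to 56.1%), in 0 of the 10, and in 10.3% of all. AP-1 matches (TGANTCA) were in 5 of the 30 (16.7%), 0 of the 10 and 4.4% of all. For C/EBP (TTGCNNAA) the counts were 5 of 30, 2 of 10 and 7.94% of all, and for the GC box (GGGCGG) 17 of 30, 3 of 10 and 69.2% of all. PU.1 matches (GAGGAAGT) were in 1 of the 30 and 3.61% of all, and the IRF consensus in 0 of the 30 and 2.93% of all; neither was in the 10. Overlapping matches counted separately, and most called peaks had no such window. Below, 3 windows under lower peaks with NF-kB matches, the Tnf window, which has none by these letters, and 2 windows under higher peaks are shown, with NF-kB matches in capitals. They are Tlr2 (chr3:83841559-83841858, minus strand), Cxcl2 (chr5:90903649-90903948, plus), Nfkb2 (chr19:46304487-46304786, plus), Tnf (chr17:35201958-35202257, minus), Crybb1 (chr5:112255570-112255869, plus) and Klhl6 (chr16:19983000-19983299, minus).
Tlr2: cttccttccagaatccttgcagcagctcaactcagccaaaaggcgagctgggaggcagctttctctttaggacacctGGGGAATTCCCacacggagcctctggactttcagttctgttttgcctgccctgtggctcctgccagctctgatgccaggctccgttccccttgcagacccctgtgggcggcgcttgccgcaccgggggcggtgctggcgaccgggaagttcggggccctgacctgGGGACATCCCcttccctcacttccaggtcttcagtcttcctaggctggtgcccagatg
Cxcl2: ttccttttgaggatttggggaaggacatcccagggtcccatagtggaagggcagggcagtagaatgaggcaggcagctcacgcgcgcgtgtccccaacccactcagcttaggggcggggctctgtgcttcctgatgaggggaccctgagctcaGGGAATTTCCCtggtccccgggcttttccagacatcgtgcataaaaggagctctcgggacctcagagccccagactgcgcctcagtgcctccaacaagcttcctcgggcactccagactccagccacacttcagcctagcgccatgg
Nfkb2: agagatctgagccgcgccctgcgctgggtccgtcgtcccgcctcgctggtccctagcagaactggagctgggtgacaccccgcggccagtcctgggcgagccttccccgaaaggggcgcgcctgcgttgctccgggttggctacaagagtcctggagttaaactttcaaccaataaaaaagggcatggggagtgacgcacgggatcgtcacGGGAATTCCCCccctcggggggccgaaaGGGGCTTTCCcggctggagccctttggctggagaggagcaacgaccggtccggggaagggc
Tnf: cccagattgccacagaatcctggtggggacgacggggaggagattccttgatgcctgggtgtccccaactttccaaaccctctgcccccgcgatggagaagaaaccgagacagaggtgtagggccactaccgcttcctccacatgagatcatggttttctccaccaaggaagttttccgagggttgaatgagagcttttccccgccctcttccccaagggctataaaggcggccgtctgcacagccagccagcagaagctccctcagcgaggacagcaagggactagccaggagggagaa
Crybb1: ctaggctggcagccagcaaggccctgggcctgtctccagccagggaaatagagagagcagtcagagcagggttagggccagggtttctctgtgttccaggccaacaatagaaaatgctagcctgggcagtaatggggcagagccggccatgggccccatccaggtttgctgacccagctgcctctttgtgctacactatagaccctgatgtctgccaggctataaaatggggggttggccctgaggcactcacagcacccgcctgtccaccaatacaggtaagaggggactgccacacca
Klhl6: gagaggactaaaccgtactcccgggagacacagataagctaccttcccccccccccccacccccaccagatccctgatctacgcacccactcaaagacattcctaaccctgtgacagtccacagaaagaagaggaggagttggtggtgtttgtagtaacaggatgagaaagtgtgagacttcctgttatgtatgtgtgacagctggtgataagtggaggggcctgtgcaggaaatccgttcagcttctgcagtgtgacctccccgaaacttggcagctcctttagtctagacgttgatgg

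The promoter peak of Vps35l, of the endosomal recycling machinery, was among the higher peaks with the smallest p (chr7:118821284-118821809). It had 19.5 and 20.1 CPM in LL and 28.6 and 24.4 CPM in LBL, against 8.89 and 14.9 CPM in PL and 10.5, 9.25 and 7.33 CPM in PBL. The groups did not overlap, and the resting libraries, with 14.7 and 10.98 CPM in PP and 18.3 and 16.6 CPM in PBP, lay below the primed libraries of their arm. Its log2 difference was 1.20 ± 0.20 (adjusted p = 1.98e-05), with 0.71 in the vehicle arm and 1.58 in the BLZ945 arm. A peak in the last exon of Gfm2, a mitochondrial translation factor, was higher by 0.77 (adjusted p = 5.381e-05).

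Genes expressed by microglia were also among those with higher peaks. The promoter peak of Crybb1, a crystallin gene expressed by microglia, had 15.97 and 19.7 CPM in LL and 27.3 and 27.9 CPM in LBL, against 11.9 and 10.7 CPM in PL and 7.02, 10.2 and 12.5 CPM in PBL. Its log2 difference was 1.11 ± 0.19 (adjusted p = 5.381e-05). In the vehicle arm the primed level stayed below the resting 24.2 and 23.9 CPM of PP. The largest difference among the higher peaks was at chrX:13606822-13607121, in an intron of Cask and 24968 bp from the start of Gpr34, a lysophospholipid receptor of microglia. It had 8.98 and 8.85 CPM in LL and 6.50 and 5.08 CPM in LBL, against 3.56 and 1.07 CPM in PL and 2.81, 2.31 and 0.733 CPM in PBL (log2 difference 1.81 ± 0.36, adjusted p = 0.0006519). PP had 12.6 and 7.98 CPM there and PBP 14.7 and 26.4 CPM, so primed LBL libraries were below both PBP libraries.

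Sall1, the transcription factor of microglial identity, was the nearest gene of 4 higher peaks among 15 tested, beside 0.977% higher of all tested peaks. Its promoter peak (chr8:89042652-89043954) had a log2 difference of 0.32 (adjusted p = 0.03636), with 108.8 and 91.3 CPM in LL and 122.2 and 97.5 CPM in LBL, against 81.8 and 62.3 CPM in PL and 112.4, 82.8 and 91.7 CPM in PBL. The groups overlapped in the BLZ945 arm. The 3 distal peaks lay 118911 to 348560 bp upstream, with log2 differences of 0.74, 1.26 and 0.54. The peak at 1.26 had 4.99 and 6.84 CPM in LL and 13.0 and 14.2 CPM in LBL, against 5.33 and 5.33 CPM in PL and 4.21, 3.70 and 2.93 CPM in PBL, with a log2 difference of 0.17 in the vehicle arm and 1.95 in the BLZ945 arm (difference between arms, adjusted p = 0.6218). Siglech, a sialic acid-binding receptor, had 1 higher peak (0.64, adjusted p = 0.04938). At Klhl6, an adaptor for ubiquitin ligases, the promoter peak was higher by 0.80 (adjusted p = 0.0005395). An intronic peak of Kcnq3, a potassium channel gene, was higher by 0.90 (adjusted p = 0.0005437). The remaining 4 named higher peaks lay over 50 kb from a start site: chr6:95452072-95452527 (0.73), chr10:100159736-100160838 (0.66), chr5:43392910-43393671 (0.67) and chr19:6669879-6670176 (1.381).

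Zbtb16 differed from these genes in its resting level. It encodes PLZF, a transcription factor known as a target of the glucocorticoid receptor. A peak in its intron 3 (chr9:48723398-48723981), 111964 bp from the start, had 46.4 and 44.7 CPM in LL and 45.5 and 38.1 CPM in LBL, against 24.9 and 31.4 CPM in PL and 18.3, 20.4 and 24.9 CPM in PBL. Resting levels were 5.26 and 5.99 CPM in PP and 4.88 and 6.03 CPM in PBP. A first LPS injection thus opened this site, by 2.31 on the log2 scale in PL against PP (adjusted p = 4.31e-06), and primed microglia were higher again by 0.81 ± 0.14 (adjusted p = 5.733e-05). Another peak, in intron 2 (chr9:48744940-48745377), was higher by 0.89 ± 0.17 (adjusted p = 0.0003314), with 31.9 and 36.2 CPM in LL and 28.6 and 19.8 CPM in LBL, against 14.8 and 15.98 CPM in PL and 19.7, 13.0 and 13.9 CPM in PBL. Its PP libraries had 2.104 and 1.996 CPM. At the low depth of PP, the resting values of both Zbtb16 peaks rest on few counts, so differences from PP are imprecise. Fkbp5, a co-chaperone and another glucocorticoid target, had an intronic peak higher by 0.53 (adjusted p = 0.026).

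Among all genes, 5 had 3 or more lower peaks nearby and 4 had 3 or more higher ones. They were picked for these counts, beside 1.16% lower and 0.977% higher of all tested peaks. Pde4b, a phosphodiesterase that breaks down cyclic AMP, was the nearest gene of 5 lower peaks among 13 tested, with log2 differences between -0.99 and -0.47. A set of 3 lower peaks lay nearest to each of Maff, a small MAF transcription factor (of 4 tested), Phlda1 (of 4), Mid1 (of 13) and 2310043L19Rik (of 5). Among higher peaks, AY512915 (of 11 tested), Dleu2 (of 16) and Sall1 (of 15) had 4 each, and Ptprm (of 13) had 3.

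Summed over all peaks within 50 kb of a gene, 188 of 13731 gene loci (1.37%) were called, 102 higher (0.743%) and 86 lower (0.626%). The count was 616 without PL 3_4 (430 higher, 186 lower), 52 without LBL 3_4 and 62 without LBL 1_2. Without LL 3_4 it was 108, without PBL 3_4 it was 100 and without PBL 4_5 it was 77. Mertk, a receptor tyrosine kinase for engulfing dying cells, had the smallest p. Its 7 peaks summed to 199.6 and 198.4 CPM in LL and 201.4 and 207.2 CPM in LBL, against 147.0 and 139.5 CPM in PL and 150.3, 164.7 and 137.9 CPM in PBL. The log2 difference was 0.48 ± 0.07 (adjusted p = 1.87e-05), equal in both arms (0.48). PP had 256.7 and 250.5 CPM, above the primed LL level. In the other arm PBP had 197.1 and 237.6 CPM, and both LBL libraries lay between these values.

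Of the homeostatic microglia genes, 6 of 29 loci rose and none fell, against 0.743% higher and 0.626% lower of all 13731 loci. Of the 29 log2 differences, 26 were positive. The list was chosen with earlier results of these data known, so its counts are a description. The list's median was 0.17, against 0.00 over all loci. The loci that rose included Mertk, Siglech (0.45), Gpr34 (0.60), Selplg (0.42), a ligand for selectins, and Sparc (0.32), a matrix glycoprotein. Tmem119 (0.32, adjusted p = 0.07469) and Sall1 (0.27, adjusted p = 0.0997) missed the threshold, and P2ry12, a purine receptor, was at 0.05 (adjusted p = 0.8445). By single peaks, 17 of the 233 tested nearest to these genes were higher and none lower, against 0.977% higher and 1.16% lower of all tested peaks. Other cells' markers were read beside this list. Border macrophage markers with a peak (Mrc1, Cd163 and F13a1, 3 of 5) summed to 160 to 196 CPM in primed libraries, against 127 to 173 CPM in first-challenged ones. The 1 peak near Ccr2, a monocyte marker, had 17.3 to 21.5 CPM in primed libraries, against 11.6 to 15.5 CPM, while Ly6c2 had none. Their part in the result was not tested. None of 13 border macrophage loci (median 0.14) and none of 7 monocyte loci were called, against 1.37% of all loci. By single peaks, 1 of the 68 tested nearest to border macrophage genes was higher and 1 lower, against 0.977% and 1.16% of all tested peaks. The higher one lay 11794 bp from Mrc1 (0.54, edgeR adjusted p = 0.01695) and the lower one was nearest to Maf (-0.78, adjusted p = 0.002958). Of the border macrophage loci 11 were positive, and 7 were higher and none lower at an unadjusted p under 0.05, against 872 higher and 759 lower of all 13731 loci. In bulk libraries a change in the share of cells with a site open and a change in its openness per cell cannot be told apart.

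**Figure D5:**
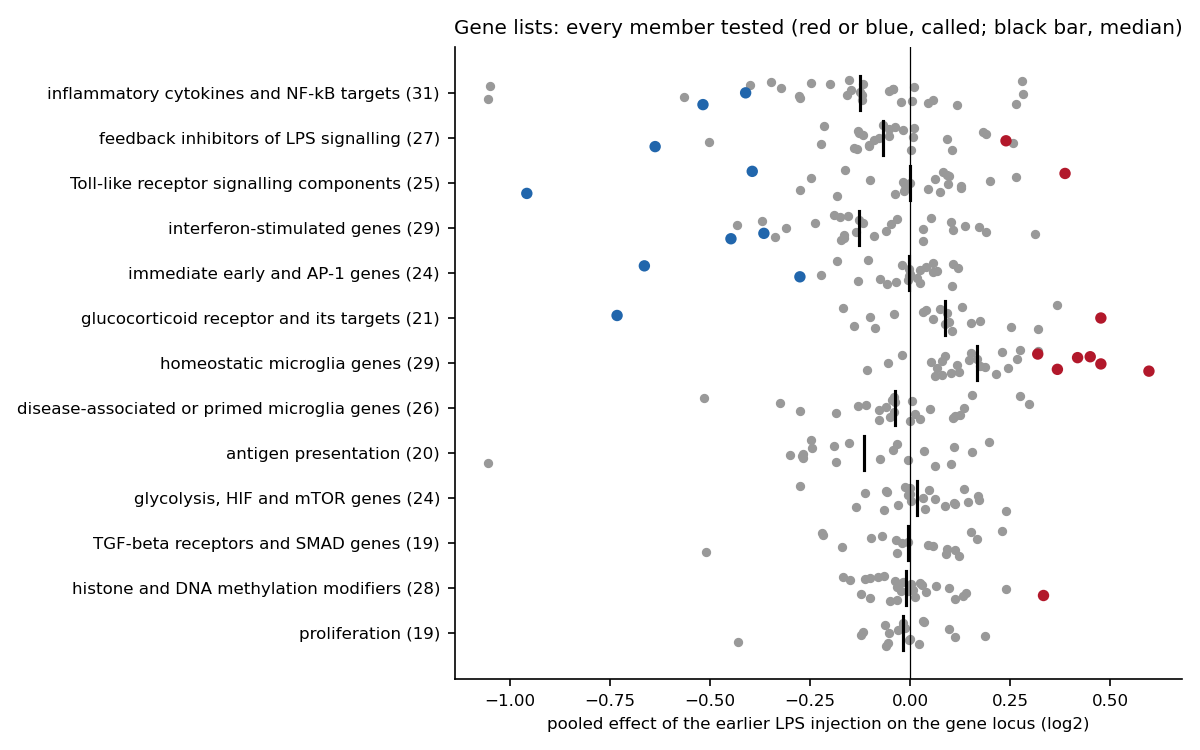
Pooled log2 difference (primed over first-challenged, x axis) of every tested gene locus in 13 lists, with loci called higher in red, called lower in blue, others in grey and the list median as a black bar; numbers in brackets are loci tested. Of the homeostatic microglia genes, 26 of 29 lie right of 0 and 6 are red, and lower calls appear among inflammatory, feedback, Toll-like receptor, interferon, immediate early and glucocorticoid lists.

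Among inflammatory cytokines and NF-kB targets, 2 of 31 loci fell and none rose (median -0.13), against 0.626% lower and 0.743% higher of all loci. Birc3 fell by 0.52 (adjusted p = 0.0004189) and Il12b, the shared subunit of IL-12 and IL-23, by 0.41 (adjusted p = 0.006212), though with peaks within 1 kb alone Il12b was at 0.136 (adjusted p = 0.9182). Tnf had 62.4 and 67.2 CPM in LL and 45.5 and 52.3 CPM in LBL, against 81.8 and 67.6 CPM in PL and 76.6, 80.04 and 61.2 CPM in PBL, and missed the threshold over its whole locus (-0.35, adjusted p = 0.06976). The cytokine loci Il1b (-0.05), Ccl2 (0.04) and Ccl3 (-0.02) and the NF-kB inhibitor Nfkbia (0.09) had adjusted p-values of 0.6201 or more. Acod1, which makes itaconate, was at 0.12 (adjusted p = 0.8313). Of 115 tested peaks nearest to the list's genes, 12 were lower and 1 was higher, against 1.16% lower and 0.977% higher of all tested peaks.

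Of the loci listed as feedback inhibitors, 1 of 27 fell and 1 rose (median -0.07), against 0.626% lower and 0.743% higher of all loci. Dusp2 fell by 0.64 (adjusted p = 1.87e-05), while Il4ra, the receptor chain for IL-4 and IL-13, rose by 0.24 (adjusted p = 0.03882). Socs3, an inhibitor of cytokine receptors, was at 0.18 (adjusted p = 0.1103). By peaks, 10 of 135 were lower and none higher, beside the same 1.16% and 0.977% of all tested peaks. Of the Toll-like receptor signalling components, Traf3 (-0.39, adjusted p = 0.00755) and Ikbke (-0.96, adjusted p = 0.008389) fell and Tlr7, a receptor for single-stranded RNA, rose (0.39, adjusted p = 0.008205), with 22 of 25 not called. Traf3 and Ikbke act between the receptors and the interferon genes.

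Of 29 interferon-stimulated loci, Cxcl10, a T-cell chemokine (-0.45, adjusted p = 0.03181), and Ifih1, an RNA sensor (-0.37, adjusted p = 0.03233), fell and none rose (median -0.13). Over all loci 0.626% were called lower and 0.743% higher. Irf7 (-0.31, adjusted p = 0.3401) and Ifit3 (-0.06, adjusted p = 0.9343) were not called. Of 24 immediate early and AP-1 loci, Maff (-0.66, adjusted p = 0.0002087) and Fosb (-0.28, adjusted p = 0.03566) fell and none rose, with a median of 0.00. The larger values were those of the BLZ945 arm, where Maff was at -1.01 and Fosb at -0.46, with -0.31 for Maff and -0.09 for Fosb in the vehicle arm. The difference between the arms did not pass the test for Maff (adjusted p = 0.5721) or Fosb (adjusted p = 0.8465).

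Of 21 loci of the glucocorticoid receptor and its targets, Mertk rose, as above, and Mt2, a metallothionein, fell. Mt2 had 44.9 and 43.5 CPM in LL and 39.0 and 33.5 CPM in LBL, against 68.8 and 63.9 CPM in PL and 66.7, 65.2 and 71.1 CPM in PBL (log2 difference -0.73 ± 0.11, adjusted p = 1.918e-05). Metallothioneins are also induced by metals and by LPS. The Zbtb16 locus within 50 kb, which leaves out both intronic peaks above, was at 0.37 (adjusted p = 0.07698), and Fkbp5 at 0.15 (adjusted p = 0.2459). The list's median was 0.09, and over all loci 0.743% were called higher and 0.626% lower.

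No locus was called among 26 disease-associated or primed microglia genes (median -0.04), 20 antigen presentation genes (-0.12), 24 glycolysis, HIF and mTOR genes (0.02), 19 TGF-beta and SMAD genes (-0.01) or 19 proliferation genes (-0.02). Over all loci 1.37% were called, so lists this small could easily hold none. At an unadjusted p under 0.05, 7 of the antigen presentation loci were lower and none higher, against 759 lower and 872 higher of all 13731 loci. By single peaks, 4 of the 55 tested nearest to antigen presentation genes were called lower and none higher, against 1.16% lower and 0.977% higher of all tested peaks. The scavenger receptor gene Cd36 was at -0.22 (adjusted p = 0.4895), with -0.66 in the vehicle arm and -0.01 in the BLZ945 arm (difference between arms, adjusted p = 0.8465). Of 28 histone and DNA methylation modifiers, Ep300, a histone acetyltransferase, rose (0.33, adjusted p = 0.0109) and none fell. Among markers of other cell types 1 locus was called. Cldn5, of endothelial tight junctions, had 13.97 and 18.5 CPM in LL and 14.3 and 9.14 CPM in LBL, against 17.2 and 26.1 CPM in PL and 21.1, 27.8 and 26.8 CPM in PBL (log2 difference -0.76, adjusted p = 0.02023). No neutrophil, lymphocyte, oligodendrocyte, astrocyte or neuron locus was called. Of 7 lymphocyte loci (median -0.30) 4 were lower at an unadjusted p under 0.05. Besides the Mrc1 and Maf peaks above, single peaks were called near Slc1a3, an astrocyte marker (2 higher), and Cd4 (1 lower). The neuron markers Gad2 (1 lower) and Syt1 (1 higher) also had called peaks. The part of these cells in the results was not tested.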

How the data were processed

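Transposase cuts in the 13 libraries were mapped to GRCm38/mm10. Per the submitters' processing notes, the tools were MACS2 2.1.1, ChIPseeker 1.38, HOMER 4.9.1, Bowtie2 2.2.6, cutadapt 1.9.1, deepTools 3.3.0, Picard 1.126, SAMtools 1.7 and bedtools 2.26. For counting, no tool is given in the sources used here. The authors deposited 1 table of 38620 peaks with estimated counts in steps of 0.5, not normalized, and ChIPseeker annotation. These were rounded to whole numbers.

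Peaks were tested with edgeR 4.0.16 (R 4.3.3): TMM scaling, filterByExpr (minimum count 10), quasi-likelihood F test with Benjamini-Hochberg adjustment over all peaks, and arm as a block. Arms and their difference came from a fit of 4 group means, and the response to a first LPS injection from 6 groups. CPM are TMM-scaled. A locus sums the peaks within 50 kb of a gene's start. SE is the log2 difference over the square root of F. The pooled fit was checked on counts simulated with a fixed dispersion, independent libraries and no arm effect. That check cannot speak to libraries that vary unequally or share an animal. Nothing says that numbered pools are paired, and p-values measure the spread between pools. Labels give PBL 3_4 and 4_5 a shared animal number. If they share an animal, they are not independent and p-values that use PBL could be too small. Intervals cover counting error only.

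Named peaks are the 12 per direction with the smallest p, 1 per gene, among those whose primed libraries lay beyond the first-challenged ones in both arms. Named loci are 2 per list and direction plus a fixed set of genes; other peaks were chosen after their values were seen. The members and lists were chosen with earlier results of these data known. Sequences come from RefSeq (GRCm38.p6). limma 3.58.1 and DESeq2 1.42.0 served as alternatives. Some items among the markers and the ranked peaks are not reported here.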

Additional observations from a re-analysis of the deposited data

Results flagged for a closer look

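Of 48 sets of 4 or more libraries examined, over named peaks and the promoter share, 2 held a library far from the others; about 1 in 20 would by chance. At the chr5:43392910-43393671 peak PBL 1_2 had 26.7 CPM, with 35.2 to 38.3 CPM in the other first-challenged libraries. The Klhl6 promoter peak had 13.0 CPM in PL 1_2, with 19.7 to 22.2 CPM in the other first-challenged libraries.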

How the results depend on the processing

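The pooled count of 804 peaks was 132 with DESeq2, 371 after thinning to equal totals in peaks, 243 with the LBL pair averaged and 526 with the replicate block; the pool numbers pair different animals and deviate together weakly (r -0.0047 to 0.167), so the block is no pairing. Leaving out each library gave 254 to 1275. Counts of 615 to 921 were within 1.5 times of it in the other settings that kept all libraries and both arms, such as limma (635). A sorter term leaves the vehicle arm no estimate, so that fit is LBL against PBL alone (588 peaks, 377 of them among the 804) and corrects nothing in the pooled effect. The 188 loci became 42 with DESeq2, 46 with peaks within 1 kb, 122 with a sorter term (the BLZ945 arm alone), and 52 to 616 without each library. LL against PL (14) gave 24 in all 13 libraries, 3 fitted alone and 1 to 284 without each library. LBL against PBL (588) gave 986 fitted alone and 37 to 406 without each library. The arm difference (0) gave 0 to 60, the promoter share difference -2.05 to 0.361 points, and the cross-arm medians -0.567 to -0.334 (lower) and 0.158 to 0.314 (higher). All 24 ranked peaks were called without each library in turn, which their choice by small p and separated libraries made likely beforehand. Only 6 of 17 called loci, which were not chosen for separation, were called without each library. Of 253 settings of 17 called loci, 75 lost the call and 1 reversed. Signs turned, all uncalled, with peaks within 1 kb for Il12b (0.136), Ccl2 (-0.0323), Ccl3 (0.0321), Nfkbia (-0.111), P2ry12 (-0.192), Fkbp5 (-0.0164) and Ifit3 (0.0324). In the BLZ945 arm alone, as with a sorter term, P2ry12 was at -0.00719 and Ifit3 at 0.0244. Without each library the Ccl3 locus ranged from -0.0715 to 0.0341, the P2ry12 locus from -0.037 to 0.123 and the Ifit3 locus from -0.199 to 0.0376. The cause was not tested. Leaving out each LL and PL library was added for the cross-arm medians after seeing the data. Motif shares around peak centres were not run, since no genome was used here; the promoter windows were chosen after seeing the data.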
